A study of Saccharomyces cerevisiae with 14 samples.

Results

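RPS14A (YCR031C) and RPS14B (YJL191W) are the 2 genes of budding yeast, Saccharomyces cerevisiae, that encode the small-subunit ribosomal protein Rps14, also called uS11. They were taken by gene name, as 2 of the 12449 annotated features in the deposited count table and 2 of the 187 introns with a deposited spliced fraction. The pair was selected on the deposited read counts of all 5 library groups and on the spliced fractions, which set the genes apart. All values, fold changes and differences of the 2 genes are therefore given as a description, with their errors and no test.

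Rps14 sits on the platform of the 40S subunit, where it binds 18S rRNA and takes part in the late maturation of that rRNA. Both genes carry a single intron just after the start codon. RPS14A is known as the copy that supplies most of the protein. RPS14B is known for autoregulation, in which Rps14 binds a structured stretch of the RPS14B pre-mRNA and inhibits its splicing.

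The study followed newly made RNA with 4-thiouracil (4tU), a thiolated uracil taken up into new transcripts, whose thiol group allows them to be biotinylated and held on streptavidin beads. All 14 libraries came from 1 haploid strain, W303U, given as MATa with the alleles ade2-1, his3-11, 15, trp1-1, leu2-3, 112 and can1-100, grown in SD medium lacking uracil and leucine at 30 °C to an OD600 of 0.8. The labelled groups received 500 µM 4tU for 1.5, 2.5 or 5 min (3 libraries each). They were set against total RNA depleted of rRNA (3 libraries, here also called the steady state) and against bead-bound RNA of cells given no label (2 libraries). The labels number the experiments as timecourses 1 to 3, each with the 3 labelling times and total RNA, and do not say more about how separate the cultures were, so p-values measure the spread between these libraries. Libraries are of whole cultures, in which fewer cells and less RNA per cell cannot be told apart. In total RNA the MATa markers had 155 to 212 CPM (counts per 10⁶ scaled counts) for STE2, the alpha-factor receptor, 11.4 to 65.2 for MFA1, 44.8 to 149 for MFA2, 41.7 to 62.3 for BAR1 and 0 to 20.7 for AGA2. The MATalpha markers had 0.281 to 1.99 CPM for STE3, 0 to 0.0460 for MF(ALPHA)1, 0 to 1.37 for MF(ALPHA)2 and 6.55 to 20.9 for SAG1, so all but SAG1 were at or near 0.

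Total counts per library were 7438973 to 25891855 at 1.5 min, 9596800 to 18891399 at 2.5 min, 7206103 to 20528678 at 5 min, 3618310 to 65173280 in total RNA and 13627513 to 37181457 without label. rRNA features held 2.34 to 28.7% of the counts in the labelled and total RNA libraries and 51.2 to 55.4% in the no-label libraries. Replicate 3 of total RNA stood apart for the pair, since RPS14B held 41.0% of the pair's counts there, against 10.8 and 14.4% in replicates 1 and 2. The protein-coding features at 0 counts were 9.53, 1.26 and 12.9% in total RNA replicates 1 to 3. The main values against total RNA are also given without replicate 3, a choice made for the paralog gap and the ranks after the data were seen.

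The introns are where the genes differ most in sequence. The first bases of each gene are shown because RPS14B was highest in the exon 1 to intron segment (see the segment values further on). In genome build R64, RPS14B lies on the plus strand of chromosome X from 73787 to 74611, with exon 1 of 10 bases at 73787 to 73796, an intron of 408 bases at 73797 to 74204 and exon 2 of 407 bases at 74205 to 74611. RPS14A lies on the minus strand of chromosome III from 177500 to 178220, with exon 1 of 7 bases at 178214 to 178220, an intron of 307 bases at 177907 to 178213 and exon 2 of 407 bases at 177500 to 177906. The first 120 bases from each start codon, read from the RefSeq R64 genome with exon 1 in capitals and intron bases in lower case, are as follows, RPS14B from X:73787-73906 and RPS14A from III:178101-178220.
RPS14B: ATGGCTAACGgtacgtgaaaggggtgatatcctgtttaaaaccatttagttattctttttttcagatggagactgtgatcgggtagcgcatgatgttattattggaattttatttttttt
RPS14A: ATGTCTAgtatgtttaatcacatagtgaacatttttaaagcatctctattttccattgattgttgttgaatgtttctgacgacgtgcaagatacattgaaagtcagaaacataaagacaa

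The splice sites differ in a single base of the first 6 intron bases, written T4C from RPS14A to RPS14B, with positions counted from 1 at the first intron base. The 5′ splice sites below have those 6 intron bases in capitals.
RPS14B 5′ splice site: aacgGTACGTga
RPS14A 5′ splice site: tctaGTATGTtt

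GTATGT began 224 of 306 introns in the deposited table of intron features (73.2%) and GTACGT began 30 (9.80%). Among introns other than those of the pair, the 16 with GTACGT and a spliced fraction had a median unspliced fraction of 0.702 at 1.5 min (range 0.125 to 0.999), and the 145 with GTATGT had a median of 0.580 (range 0.020 to 0.999), so the ranges overlapped almost in full. The branch points carry the same ACTAAC in both genes, in capitals below.
RPS14B branch point: tttACTAACaa
RPS14A branch point: gatACTAACaa

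The last 3 intron bases at the 3′ splice site, in capitals below, are TAG in both genes.
RPS14B 3′ splice site: cctcttatcatgtaTAGacct
RPS14A 3′ splice site: ttactatttccattTAGacgt

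The exons are far closer to each other than the introns. Over exon 2 the genes differ at 30 of 407 bases (92.6% identity), with a longest identical run of 92 bases, while the introns share no stretch of 20 bases. Of the windows of 30 bases in RPS14B exon 2, 21.7% also occur in RPS14A, and 12% of those of 50 bases do. The treatment of reads that match both genes is not stated, so counts over exon 2 are uncertain for either gene and those over the introns are not affected in this way. No other gene of the reference annotation overlaps either member. The nearest are SOP4 and RPS22A beside RPS14B (372 and 298 bases away) and SNR65 and SNR189 beside RPS14A (217 and 389 bases away).

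RPS14B was most abundant in the shortest labelling. Scaled to CPM with TMM factors, a library scaling by the bulk of features, RPS14B had 2988, 2748 and 1826 CPM in timecourses 1 to 3 at 1.5 min, 983, 1192 and 1418 CPM at 2.5 min, and 963, 514 and 805 CPM at 5 min, against 387, 458 and 548 CPM in total RNA and 424 and 248 CPM without label. Every 1.5 min library was above every library of the other groups. The 2.5 min libraries were above all 5 min libraries, narrowly, and the lowest 5 min library (514 CPM) lay below the highest total RNA library (548 CPM). Group means were 2521 ± 613, 1198 ± 218 and 761 ± 228 CPM over the labelling times, 464 ± 80.7 CPM in total RNA (SD, n = 3 each) and 336 ± 124 CPM without label (SD, n = 2).

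RPS14A had the opposite distribution. It had 450, 323 and 295 CPM in timecourses 1 to 3 at 1.5 min, 445, 297 and 271 CPM at 2.5 min, with 391, 383 and 335 CPM at 5 min, against 3212, 2717 and 789 CPM in total RNA and 3318 and 964 CPM without label. The labelled libraries of the 3 times overlapped and all 9 lay below every total RNA and no-label library. Group means were 356 ± 82.6, 338 ± 93.9 and 370 ± 30.3 CPM over the labelling times, 2239 ± 1280 CPM in total RNA (SD, n = 3 each) and 2141 ± 1665 CPM without label (SD, n = 2). Without replicate 3 the 2 remaining total RNA libraries averaged 2964 CPM for RPS14A and 422 CPM for RPS14B. The 2 no-label libraries lay far apart.

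**Figure D1:**
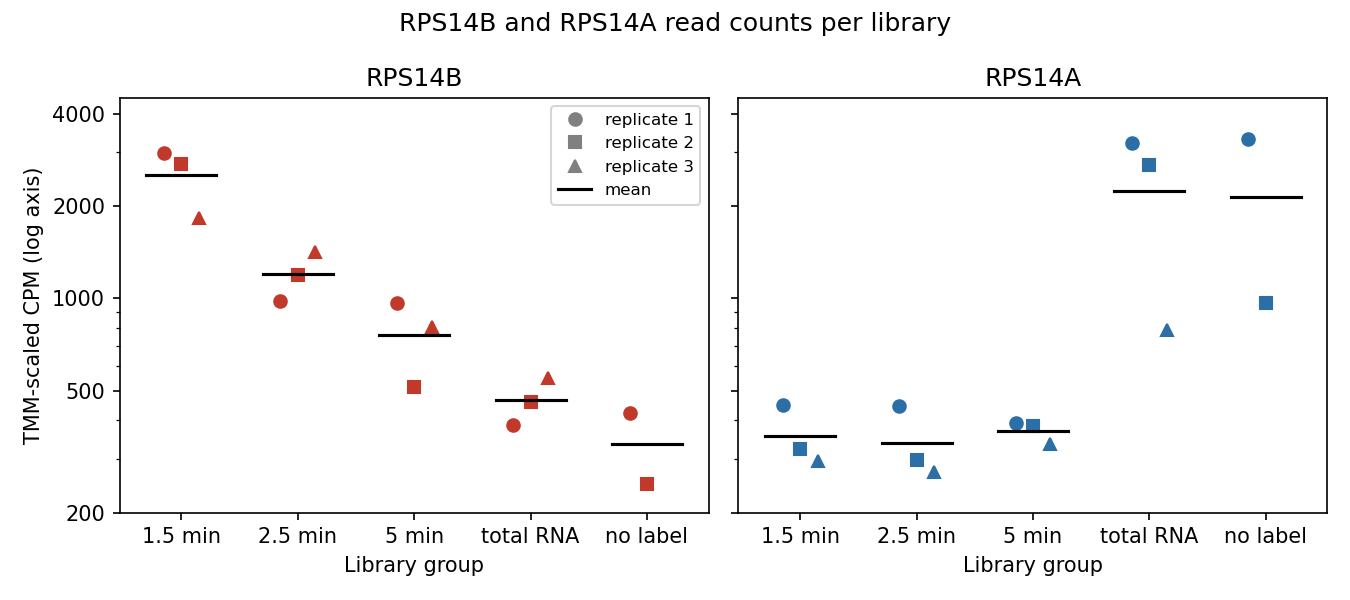
Read counts of RPS14B (left) and RPS14A (right) in each of the 14 libraries as TMM-scaled CPM on a log axis, by library group; points are libraries, marked by replicate number, and bars are group means. The no-label replicate numbers name no timecourse. RPS14B lies at 1826 to 2988 CPM at 1.5 min and 387 to 548 CPM in total RNA, and RPS14A at 295 to 450 CPM at 1.5 min and 789 to 3212 CPM in total RNA.

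Within each timecourse RPS14B was above total RNA at every labelling time and RPS14A below it. For RPS14B the log2 ratio to the total RNA library of the same timecourse was 2.95, 2.59 and 1.74 at 1.5 min, 1.34, 1.38 and 1.37 at 2.5 min, with 1.31, 0.17 and 0.56 at 5 min in timecourses 1 to 3, so all 9 ratios were above 0. For RPS14A the log2 ratios were −2.83, −3.07 and −1.42 at 1.5 min, −2.85, −3.19 and −1.54 at 2.5 min, with −3.04, −2.83 and −1.24 at 5 min. All 9 were below 0, and the values nearest 0 were those of timecourse 3, whose total RNA library stood apart. From 5 min over 1.5 min, RPS14B had log2 ratios of −1.63, −2.42 and −1.18 and RPS14A of −0.20, 0.24 and 0.18.

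In the edgeR fit over all 11513 features, the log2 fold change of RPS14B against total RNA was 2.44 ± 0.38 at 1.5 min, 1.37 ± 0.37 at 2.5 min and 0.71 ± 0.36 at 5 min (SE). That of RPS14A was −2.65 ± 0.49, −2.73 ± 0.50 and −2.60 ± 0.49 at those times (SE). Without total RNA replicate 3 they were 2.57, 1.50 and 0.85 for RPS14B and −3.06, −3.14 and −3.01 for RPS14A at 1.5, 2.5 and 5 min. As background, 6.71% of the features were called higher and 11.4% lower at 1.5 min against total RNA (adjusted p under 0.05), 4.86% higher and 10.2% lower at 2.5 min, and 3.26% higher at 5 min. The median log2 fold change over all features was 0.03 at 1.5 min. RP genes as a class were low among labelled RNA, with a median of −2.08 over 137 RP genes, and RPS14B ranked first and RPS14A 115th of them at 1.5 min (first and 128th without total RNA replicate 3). RPS14B also ranked first of the RP genes at 2.5 and 5 min, and last of the 137 in 5 min over 1.5 min, where its log2 fold change was −1.73 ± 0.37 (SE) beside 0.05 ± 0.46 for RPS14A and a median of 0.29 over RP genes. No feature was called between 5 and 1.5 min by edgeR (background 0%), 754 of 11513 had an unadjusted p under 0.05, and DESeq2 called 53 higher and 65 lower.

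The comparison with the no-label libraries sets the scaled counts of each gene beside those of bead-bound RNA from unlabelled cells. Scaled counts are relative, so they do not give the amount of RNA held by the beads. For RPS14B the log2 fold change over no label was 2.91 ± 0.54 at 1.5 min, 1.83 ± 0.51 at 2.5 min and 1.18 ± 0.49 at 5 min (SE, edgeR fit over 5 groups). As background, 1.44, 0.642 and 0.0599% of 11688 features were called higher at those times (adjusted p under 0.05). All 9 labelled libraries were above both no-label libraries for RPS14B.

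On the TMM scale RPS14A lay below the no-label level. Its log2 fold change was −2.59 ± 0.63 at 1.5 min, −2.66 ± 0.63 at 2.5 min and −2.53 ± 0.63 at 5 min (SE), with 3.35, 2.17 and 0.282% of features called lower as background. These values move with single libraries and with the scaling. Without the first no-label library, RPS14A stood at −1.43 at 1.5 min, and without timecourse 1 or 2 RPS14B had 2.85 and 2.84 at 1.5 min in fits that called no feature. Scaled by library size alone, which moved the median of all features to 2.26, RPS14A at 1.5 min was at −0.01 and RPS14B at 5.35. A scaling moves both paralogs of a library alike. How much of the RPS14A signal in the labelled libraries is unlabelled RNA was not tested.

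The share of the pair's counts held by RPS14B needs no scaling between libraries. It was 86.9, 89.5 and 86.1% in timecourses 1 to 3 at 1.5 min, 68.8, 80.0 and 84.0% at 2.5 min, with 71.1, 57.3 and 70.6% at 5 min, against 10.8, 14.4 and 41.0% in total RNA and 11.3 and 20.4% without label. The 9 labelled libraries held 57.3% or more and the other 5 held 41.0% or less, and in each timecourse the share was lower at 5 min than at 1.5 min. These are shares of whole gene counts. By segment values, given further on, RPS14B was below RPS14A over exon 2 and at the exon junction in every group. Counting error is small beside these differences: the widest 95% Wilson interval among the labelled libraries was 70.4 to 71.9%, and total RNA replicate 1, with 616 RPS14B counts, had 9.99 to 11.6%. PCR reads are not independent molecules, so such intervals cover counting error only. The group means were 87.5 ± 1.78, 77.6 ± 7.88 and 66.3 ± 7.83% at 1.5, 2.5 and 5 min, 22.1 ± 16.5% in total RNA (SD, n = 3 each; 12.6% without replicate 3) and 15.8 ± 6.43% without label (SD, n = 2). From the deposited RPKM, the share at 1.5 min was 86.7, 89.3 and 85.9%. The feature lengths implied by RPKM differ by a ratio of 1.015, while RPS14B and RPS14A span 825 and 721 bases with their introns. The RPKM share is thus bound to lie near the share of counts and does not adjust for intron length.

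**Figure D2:**
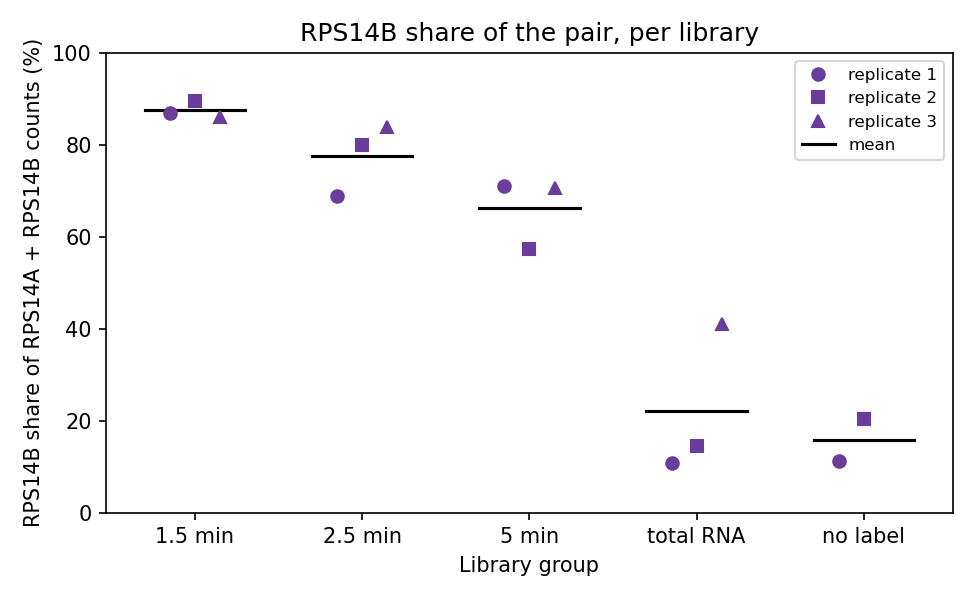
RPS14B counts as a percentage of RPS14B plus RPS14A counts in each library, by group; points are libraries with 95% Wilson intervals (smaller than most symbols) and bars are group means. The 9 labelled libraries lie between 57.3 and 89.5% and the 5 others between 10.8 and 41.0%, the highest of these being total RNA replicate 3.

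By the deposited fractions, labelled RPS14B RNA was almost wholly unspliced and that of RPS14A mostly spliced (boundary shares further on differ in part). The unspliced fraction, 1 minus the spliced fraction deposited by the authors, was 0.996, 1.000 and 1.000 for RPS14B in timecourses 1 to 3 at 1.5 min, 0.999, 1.000 and 1.000 at 2.5 min, with 0.809, 1.000 and 1.000 at 5 min, against a single steady-state value of 0.160. The library at 0.809 was the one labelled library in which a sizeable spliced fraction of RPS14B (0.191) was deposited. For RPS14A it was 0.147, 0.080 and 0.165 at 1.5 min, 0.086, 0.050 and 0.064 at 2.5 min, with 0.030, 0.015 and 0.058 at 5 min, against 0.002 at steady state. The groups of the paralogs did not overlap at any time. The difference, RPS14B minus RPS14A within a library, averaged 0.868 ± 0.046, 0.933 ± 0.019 and 0.902 ± 0.109 over the 3 labelling times (SD, n = 3 each), and 0.158 at steady state.

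**Figure D3:**
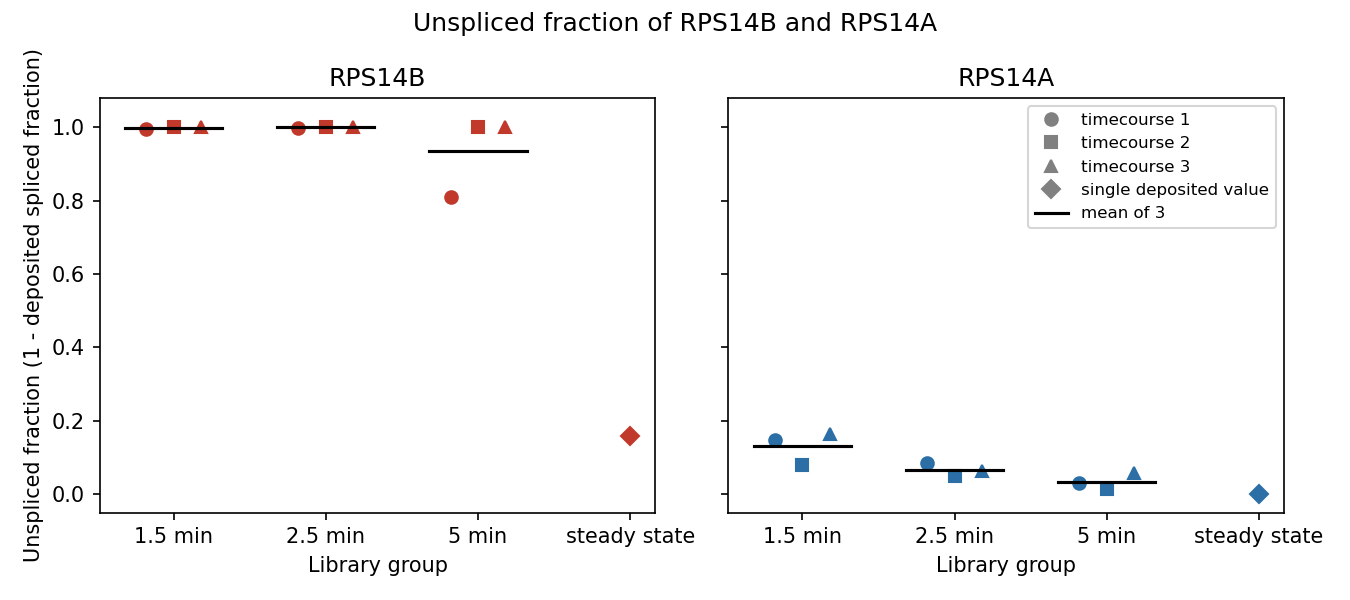
Unspliced fraction (1 minus the deposited spliced fraction) of RPS14B (left) and RPS14A (right) at each labelling time and at steady state; circles, squares and triangles are timecourses 1, 2 and 3, bars are means of 3 and diamonds are single deposited values. RPS14B stays at 0.809 to 1.000 over the labelled libraries with 0.160 at steady state, and RPS14A lies between 0.015 and 0.165 with 0.002 at steady state.

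Between labelling times the deposited unspliced fraction differed little in RPS14B, and in RPS14A the later means were lower. The RPS14B fraction lay at or near its upper limit except in timecourse 1 at 5 min. Other readouts of RPS14B, given further on, did move with labelling time. Its exon junction value was 0.023, 0.041 and 0.048 at 1.5, 2.5 and 5 min, against 0.047 in total RNA (a single value per group). Its boundary shares were also higher at each later time. In RPS14A the difference was −0.096 ± 0.033 at 5 min against 1.5 min, −0.064 ± 0.033 at 2.5 min against 1.5 min and −0.032 ± 0.033 at 5 min against 2.5 min (SE, limma over 187 introns). For RPS14B the differences were −0.062 ± 0.053, 0.001 ± 0.053 and −0.063 ± 0.053 in the same comparisons (SE). Without timecourse 1, the difference at 5 min against 1.5 min for RPS14B was 0.000. As background, limma called 42.2% of the introns lower (79) and 1.07% higher at 5 min against 1.5 min, and 4.81% lower and 0% higher at 2.5 min against 1.5 min (adjusted p under 0.05). Between 5 and 2.5 min limma called 0 of 187 introns (31 at an unadjusted p under 0.05), and 15 with the timecourse as a block.

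Among all 187 introns RPS14B stood near the top while labelled and lower at steady state. Its mean unspliced fraction of 0.999 at 1.5 min tied for rank 2 with RPL22B (0.999), another autoregulated RP gene, behind MPT5 (0.999), which encodes an RNA-binding protein of the Puf family, and ahead of RFA2 (0.997), a subunit of the single-stranded DNA binding complex RPA. It ranked first at 2.5 min, 6th at 5 min and 48th at steady state, where the median intron had 0.055. Among 86 introns of RP genes it tied for first with RPL22B at 1.5 min, ranked first at 2.5 and 5 min and had rank 3 at steady state. RPS14A ranked 172nd at 1.5 min, between RPL40A (0.140), a fusion of ubiquitin and a large-subunit protein, and RPL36A (0.129), 180th at 2.5 min, 177th at 5 min and 186th at steady state. The median intron had 0.588, 0.445 and 0.259 at 1.5, 2.5 and 5 min. The spliced curve of RPS14A had a deposited area of 0.938, 16th highest of 117 introns with a median of 0.79.

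The reads behind the fractions were a varying share of each gene's counts. For RPS14B they numbered 5716, 44370 and 51520 in timecourses 1 to 3 at 1.5 min, 5326, 21229 and 28445 at 2.5 min, with 1931, 11546 and 16654 at 5 min. These are 16.4, 55.5 and 62.9% of the gene's counts at 1.5 min, 34.9, 72.3 and 63.7% at 2.5 min, with 19.0, 66.8 and 68.0% at 5 min, while the median intron had 87.3 to 91.9% in the 9 libraries. RPS14B was thus below the median intron in every labelled library and lowest in timecourse 1. For RPS14A the reads behind the fraction were 87.3, 95.1 and 67.9% of its counts at 1.5 min, 83.7, 86.3 and 55.4% at 2.5 min, with 82.6, 84.4 and 47.2% at 5 min. RPS14B had the lower percentage in 7 of the 9 libraries and RPS14A in timecourse 3 at 2.5 and 5 min. The deposited 95% interval was 0.109 wide or to each side, which is not stated, for the 0.191 spliced of timecourse 1 at 5 min, and 0.002 or less in the other 5 min libraries. At steady state 38338 reads lay behind the RPS14B value, more than the 22001 counts of the gene summed over the total RNA libraries, as for 57 of the 187 introns, and 107302 behind that of RPS14A (115132 counts). How the authors chose these reads is not stated.

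Segment values, 1 per segment and group, show which parts of RPS14B had the high values. Read positions within a segment are not given. Segments are named by the headers (exon 1 to intron, intron, intron to exon 2, exon 2, and the exon 1 to exon 2 junction). Their scale is unsure, so they are used as ratios and ranks. RPS14B had a value of 28.333 in the exon 1 to intron segment at 1.5 min, 11.167 at 2.5 min and 6.472 at 5 min, against 0.758 in total RNA and 0.296 without label. In all 5 groups this was the highest of the 215 genes ranked, out of 311 with segment values. It was 17.1, 8.16 and 11.7 times the next gene at 1.5, 2.5 and 5 min, which was ACT1, actin. In total RNA and without label the next gene was RPP1B, a stalk protein gene, and RPS14B was 3.21 and 1.28 times as high.

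Along RPS14B the values dropped step by step from the 5′ end of the intron to exon 2 at 1.5 and 2.5 min. At 1.5 min they were 28.333 for exon 1 to intron, 3.836 for the intron, 0.794 for intron to exon 2, 0.389 for exon 2 and 0.023 for the exon junction. From exon 1 to intron through exon 2 they were 11.167, 2.208, 0.426 and 0.202 at 2.5 min, with 6.472, 0.831, 0.157 and 0.160 at 5 min, against 0.758, 0.133, 0.177 and 0.188 in total RNA and 0.296, 0.116, 0.042 and 0.125 without label. In the last 3 groups exon 2 was above the intron to exon 2 segment. RPS14A at 1.5 min had 0.146, 0.170, 0.063, 0.790 and 0.196 in the same segments, with exon 2 the highest. The ratio of the exon 1 to intron segment over the intron to exon 2 segment in RPS14B was 35.7, 26.2 and 41.2 at 1.5, 2.5 and 5 min, against 4.28 in total RNA and 7.05 without label. It ranked first in each group among the 143, 135, 98, 52 and 46 genes whose intron to exon 2 value passed a floor of 0.02. The median of these genes was 1.04, 1.03 and 0.907 at the labelled times, against 0.0761 in total RNA and 0.0767 without label. Genes were kept on the denominator alone, which favours low ratios, so these medians are not those of all genes.

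By segment values, the RPS14B excess over RPS14A lay in the intron and not in exon 2. These ratios take the values of both genes to be on a common scale, which is unsure. Values over exon 2 are also open to reads that match both genes. At 1.5 min RPS14B over RPS14A was 194 in the exon 1 to intron segment, 22.6 in the intron and 12.6 in intron to exon 2, but 0.492 in exon 2 and 0.117 at the exon junction. Exon 2 ratios were 0.281 at 2.5 min and 0.224 at 5 min, against 0.111 in total RNA and 0.109 without label, and junction ratios 0.165 and 0.210 at 2.5 and 5 min, against 0.0957 in total RNA and 0.0604 without label. In every group RPS14B was thus below RPS14A over exon 2 and at the junction, whereas by gene counts it was 6.64, 8.50 and 6.20 times RPS14A in timecourses 1 to 3 at 1.5 min. In the intron the ratio was 22.6 to 26.6 in the labelled groups and total RNA and 58.0 without label.

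**Figure D4:**
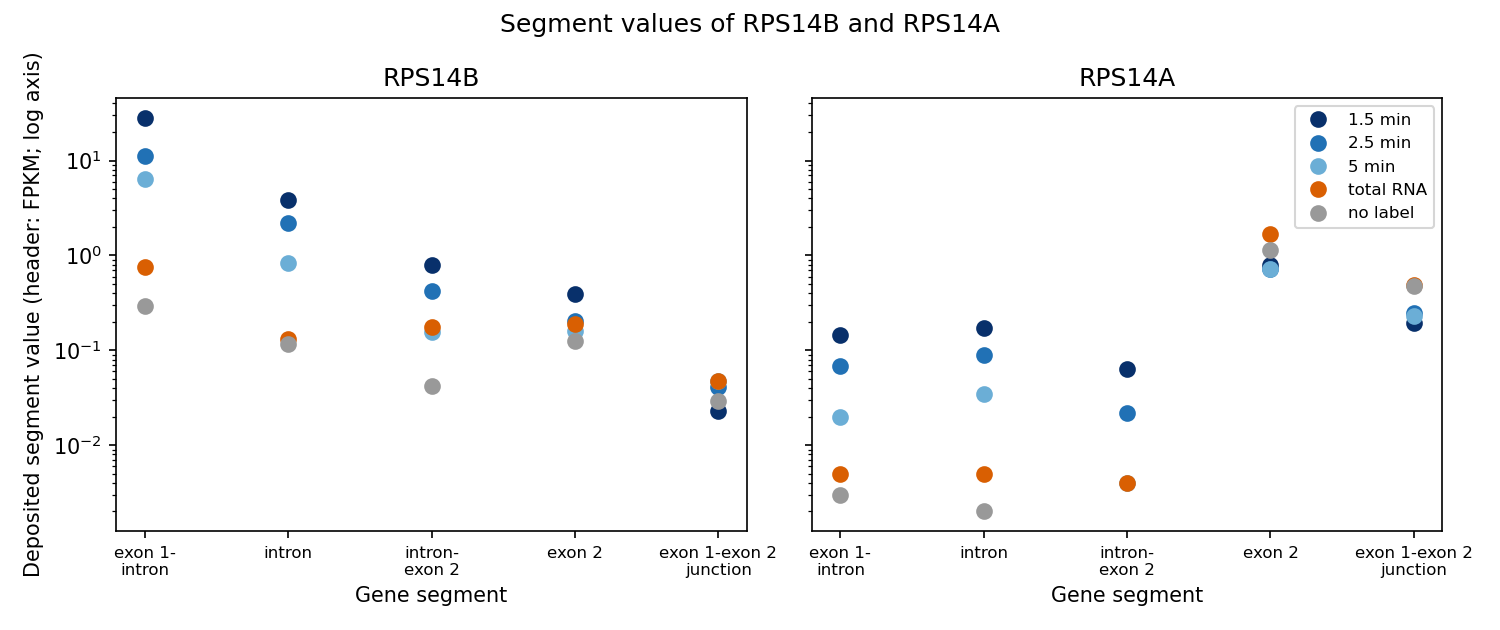
Deposited segment values (FPKM in the headers, scale unsure) of RPS14B (left) and RPS14A (right) on a log axis, by gene segment from 5′ to 3′ and the exon junction; each point is the single value of 1 group, and a value of 0 (RPS14A, intron to exon 2, no label) is not drawn. RPS14B is highest in exon 1 to intron (28.333 at 1.5 min) and RPS14A in exon 2 (0.790 at 1.5 min).

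Intron over exon values moved apart between labelled RNA and total RNA in both genes. The intron over the exons was 10.1, 11.1 and 5.30 for RPS14B at 1.5, 2.5 and 5 min, against 0.724 in total RNA and 0.951 without label. For RPS14A it was 0.218, 0.125 and 0.0494, against 0.00297 in total RNA and 0.00176 without label. In all 5 groups the RPS14B ratio exceeded that of RPS14A. Among genes whose exon 2 value passed the floor of 0.02, intron over exon 2 in RPS14B ranked second in the labelled groups and total RNA and 5th without label.

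Shares formed from the boundary segment values were below the deposited steady-state spliced fraction for RPS14B. They take the segments to be on a common scale, which is unsure, and the boundaries of RPS14B gave unlike shares. The shares are therefore not measured percentages of spliced RNA. The exon junction as a share of the junction plus the exon 1 to intron segment was 0.0811, 0.366 and 0.736% at 1.5, 2.5 and 5 min, against 5.84% in total RNA and 8.92% without label. With the intron to exon 2 segment in its place the shares were 2.82, 8.78 and 23.4%, against 21.0% in total RNA and 40.8% without label. The deposited spliced fraction at steady state was 0.840, far above both boundary shares of total RNA. At 5 min the 23.4% lay beside deposited spliced fractions of 0.191, 0.000 and 0.000 in timecourses 1 to 3. For RPS14A the shares at the 5′ boundary were 57.3, 78.3 and 92.0%, against 99% in total RNA and 99.4% without label, beside a deposited steady-state fraction of 0.998. At the 3′ boundary they were 75.7, 91.9 and 98.3%, against 99.2% in total RNA and 100% without label. At 1.5 min both RPS14A shares lay below the deposited spliced fractions of 0.853, 0.920 and 0.835. Both boundary shares of RPS14A and RPS14B were higher at each later labelling time. What sets the deposited fractions and the boundary shares apart was not tested for either gene.

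In deposited sequence features the RPS14B intron was the longer and more strongly folded one. It has 408 bases, against 307 in RPS14A and a median of 148 over 306 introns, and 383 bases, against 258, from the 5′ splice site to the branch point. From branch point to 3′ splice site RPS14B has the shorter distance, 26 bases, against 50 in RPS14A. The predicted folding energy of the whole intron was −113.3 in RPS14B (19th lowest), against −62.8 in RPS14A, and per base −0.278 in RPS14B (second lowest of 306 introns), against −0.205 in RPS14A and a median of −0.174.

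Around the 5′ splice site the order was reversed. The predicted energy within 20 bases of it was 0.2 in RPS14B (5th highest, hence least folded), against −3.5 in RPS14A and a median of −3.2. The 5′ splice-site motif score was 61.0308 in RPS14B, against 72.5179 in RPS14A and a median of 71.76, and the 3′ splice-site score 43.7058, against 55.8543 and a median of 49.27. The branch point of RPS14B had the top score of 100, against 83.2253 in RPS14A.

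Among paralog pairs of RP genes RPS14 had the widest gap at 1.5 min, in the fold change of gene counts and in the unspliced fraction. The log2 fold change at 1.5 min over total RNA differed by 5.09 between RPS14B and RPS14A, first in size of 57 pairs, where the next, RPL7, had 3.81 and the median size over the other pairs was 0.59. Without total RNA replicate 3 the RPS14 gap was 5.63, again first of 57 pairs, and the next was 4.75. These gaps are of whole gene counts. By segment values RPS14B over RPS14A was 0.492 in exon 2 at 1.5 min and 0.111 in total RNA. In the exon 1 to intron segment it was 194 and 152. Segment values of the other pairs were not compared. The unspliced fraction at 1.5 min differed by 0.868, first of 40 pairs. It was followed by RPL31 (0.869 in RPL31B and 0.055 in RPL31A), RPL22 (0.999 in RPL22B and 0.204 in RPL22A) and RPS19 (0.204 in RPS19B and 0.901 in RPS19A), and the median size over the other pairs was 0.203. At steady state the RPS14 difference of 0.158 ranked second behind RPL22 (0.959), with a median of 0.011 over the other pairs. RPL22B kept an unspliced fraction of 0.973 at steady state and RPL31B had 0.052, beside 0.160 for RPS14B. Since the pair was picked for these contrasts, its ranks are a description.

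**Figure D5:**
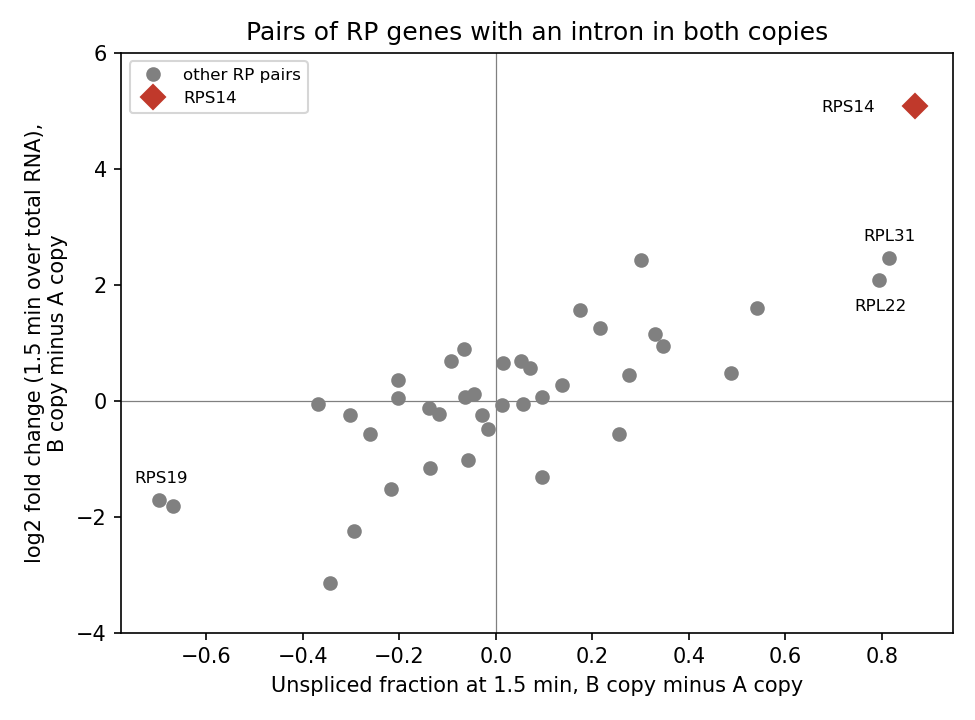
Each point is 1 of 40 pairs of RP paralogs with an intron value in both copies; the horizontal axis is the mean unspliced fraction at 1.5 min, B copy minus A copy, and the vertical axis the log2 fold change at 1.5 min over total RNA, B copy minus A copy. RPS14 lies at 0.868 and 5.09, beyond RPL31 and RPL22 on both axes, and RPS19 lies at the other end of the horizontal axis at −0.697.

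Of 7 listed genes with introns known or reported to be autoregulated, 2 were higher at 1.5 min than in total RNA, RPL22B (log2 fold change 1.27, edgeR adjusted p = 0.0399) and the mRNA export factor gene YRA1 (0.89, edgeR adjusted p = 0.0302). RPS9B, encoding a small-subunit protein, was lower (−1.57, edgeR adjusted p = 0.00963). Of all features 6.71% were called higher and 11.4% lower. The median log2 fold change of the list was 0.67, beside 0.03 over all features. RPL30 (−0.42), RPL22A (−0.82), RPS9A (0.67) and the DEAD-box helicase gene DBP2 (0.78) did not pass. The list was chosen with earlier results of these data known, so these calls are a description and no test of the list.

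Their unspliced fractions at 1.5 min were 0.991 in RPL30, 0.999 in RPL22B, 0.930 in RPS9A, 0.916 in YRA1, 0.764 in DBP2, 0.637 in RPS9B and 0.204 in RPL22A. At 5 min they were 0.771 in RPL30, 0.909 in RPL22B, 0.519 in RPS9A, 0.759 in YRA1, 0.817 in DBP2, 0.172 in RPS9B and 0.063 in RPL22A. None of the 7 reached the mean of RPS14B at 5 min (0.936 ± 0.110, SD, n = 3), although 0.809 in its timecourse 1 was below RPL22B and DBP2.

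Of 29 listed genes that act in 40S maturation with Rps14, or whose proteins lie in the small subunit beside it, 28 were tested at 1.5 min against total RNA, and 0 rose and 13 fell (edgeR adjusted p under 0.05), where 6.71% of all features were called higher and 11.4% lower. Their median log2 fold change was −1.44. This list was also chosen with earlier results of these data known, so its calls are a description. Of the 13 that fell 12 are RP genes, and 107 of the 137 RP genes were called lower in this comparison. RPS2 (−3.37 ± 0.35) and RPS27B (−3.37 ± 0.37, SE), both encoding small-subunit proteins, had the largest fold changes. At 5 min 11 of 28 fell, with a median of −1.40, where 8.47% of all features were called lower. The one other gene that fell was TSR1 (−2.01 ± 0.62, SE, edgeR adjusted p = 0.0439), which encodes a GTPase-like 40S assembly factor. KRR1, encoding an early 40S assembly factor, had −2.70 ± 0.93 and did not pass (SE, edgeR adjusted p = 0.0639). The assembly factor genes FAP7, whose ATPase binds Rps14, and PNO1 and NOB1, a rRNA-binding factor and the nuclease that makes the 18S end, had −0.67, 0.38 and 0.28 at 1.5 min and did not pass (edgeR adjusted p = 0.359, 0.509 and 0.608).

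Across the 12 labelled and total RNA libraries the paralogs ran against each other. The log2 CPM of RPS14B and RPS14A had a Pearson r of −0.670 and a Spearman rho of −0.608, as a description over libraries that fall into groups. The 3 of 6428 genes most like RPS14B were YKR011C (r = 0.936), YDR249C (r = 0.928) and DFR1, dihydrofolate reductase (r = 0.917), whose log2 fold changes at 1.5 min over total RNA were 2.36, 2.13 and 1.93. Those most like RPS14A were ARO8, an aromatic aminotransferase (r = 0.992), RPL5, the large-subunit protein that binds 5S rRNA (r = 0.991), and SRL1, a cell wall mannoprotein (r = 0.99), with −2.37, −2.29 and −2.86.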

How the data were processed

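Read counts per annotated feature and RPKM were deposited by the authors, as whole unnormalised counts and as values scaled to feature length and library size, per the file headers. The 2 RPKM columns of the no-label libraries were not used. The submitters' processing notes list STAR 2.4.2a and genome build R64 without a role; the counting tool, strand setting and treatment of reads matching both paralogs are not stated. The spliced fraction per intron, with a 95% interval and the reads behind it, was deposited by the authors for each labelled library and once for the steady state; its method is not stated. Segment values were deposited by the authors under FPKM headers, but lie far below the RPKM of the genes, and were treated as a score. Splice-site scores and folding energies are score values deposited by the authors, and the other lengths were deposited as well, per the file headers.

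From 12549 rows 100 exact repeats were removed. Abundances were fitted with edgeR 4.0.16 (R 4.3.3; filterByExpr minimum count 10, TMM, quasi-likelihood test, Benjamini-Hochberg over all features, threshold 0.05), over 4 groups for labelled and total RNA and over 5 with the no-label group; unspliced fractions with limma 3.58.1 over 187 introns. The SE of an edgeR log2 fold change was taken as its absolute value divided by the square root of the quasi-likelihood F statistic. CPM use TMM factors over 14 libraries, and correlations a prior count of 2. Intron sequences were read from RefSeq R64, whose gene lengths equal the deposited ones (721 and 825 bases). Genes named beside the pair follow a rule: the 3 genes most correlated with each member, the 3 other RP pairs with the largest unspliced difference, the listed autoregulated introns, the introns next in rank, and the 3 largest fold changes of the 40S list, of which 1 is not reported here. RPL7, ACT1, RPP1B, FAP7, PNO1, NOB1, TSR1 and KRR1 fall outside it and were named after their values were seen. The members and lists were chosen with earlier results of these data known, and from these count and spliced-fraction tables, so the tests planned for the members against no label and between times are given as values without a p.

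The timecourse numbers pair the labelled and total RNA libraries, per the labels: deviations from group means correlated at 0.61 to 0.877 between labelled libraries of 1 timecourse and at 0.253 to 0.551 between labelled and total RNA, against −0.664 to 0.1 and −0.452 to 0.0422 across timecourses. The main edgeR and limma fits had no timecourse term, so their SE and calls do not use this pairing. The no-label columns name no timecourse and were paired with nothing; the source label of 1 of them reads as total RNA, and its title set the group. Alternatives tried were DESeq2 1.42.0, library-size scaling, no filter, a logit scale, a minimum of 50 reads, the timecourse as a block, leaving out libraries, and other segments. The fits were tested on simulated data.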

Additional observations from a re-analysis of the deposited data

How the results depend on the processing

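The calls against the no-label libraries were the least stable. With only the compared groups in the fit no feature was called at any time (0, against 560, 329 and 40 at 1.5, 2.5 and 5 min), with RPS14B at 2.95 at 1.5 min and RPS14A at −2.54 and −2.64 at 1.5 and 2.5 min. DESeq2 called 1828, 1460 and 1298 features, with RPS14B at 1.90 and 1.22 at 2.5 and 5 min and RPS14A at −2.48 at 5 min. Scaling by library size called 6015, 5984 and 5281 features, with RPS14B at 4.26 and 3.39 at 2.5 and 5 min and RPS14A at −0.01 and −0.11 at 1.5 and 2.5 min. Leaving out 1 library or timecourse gave 0 to 962, 0 to 668 and 0 to 482 calls, log2 fold changes of −3.22 to −1.43, −3.30 to −1.51 and −3.17 to −1.38 for RPS14A, and 2.57 to 3.35 for RPS14B at 1.5 min; without timecourse 1 or 2 no feature was called at any time. The cause was not tested.

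Against total RNA, 2084, 1733 and 1350 features were called at 1.5, 2.5 and 5 min; DESeq2 called 3544, 3187 and 2716, and library-size scaling 6677, 6874 and 6111, with RPS14A at −0.80, −0.90 and −0.94 and RPS14B at 4.45, 3.35 and 2.49, both on a scale whose median over all features moved to 1.97, 2.04 and 1.86. Leaving out libraries gave 0 to 3782, 0 to 3388 and 0 to 2977 calls, 0 without timecourse 2 and 3782, 3388 and 2977 without total RNA replicate 3; RPS14B at 2.5 min ranged from 1.36 to 1.50. DESeq2 called 118 features between 5 and 1.5 min. The timecourse as a replicate block gave 2762, 2433 and 2022 calls against total RNA, gave 25 introns called at 2.5 against 1.5 min, against 9 without it, and 15 at 5 against 2.5 min, against 0 without it. With the block 107 introns were called at 5 against 1.5 min, against 81 without it. On the logit scale 1 intron was called at 2.5 against 1.5 min. Leaving out a timecourse gave 0 to 2 introns there and 9 to 50 at 5 against 1.5 min (81 in all libraries), fewest without timecourse 1, and differences of −0.112 to −0.086 for RPS14A.

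The segment ratios depend on the segment chosen. With exon 1 to intron in place of the intron, the ratio to the exons in RPS14B was 74.4, 56.2 and 41.3 at 1.5, 2.5 and 5 min, against 4.13 in total RNA and 2.43 without label, and in RPS14A 0.0282 at 5 min. With intron to exon 2 it was 2.09, 2.14 and 1.00 in RPS14B, against 0.964 in total RNA and 0.344 without label, and in RPS14A 0.0806, 0.0309 and 0.00565, against 0 without label. In each case RPS14B stayed above RPS14A. The share of the pair after subtracting the no-label level was not computed, since on the TMM scale RPS14A lay below that level in all 9 labelled libraries. This depends on the scaling. By library size alone, the log2 fold change of RPS14A over no label was −0.01, −0.11 and −0.15 at 1.5, 2.5 and 5 min. The paralog gap against total RNA was 5.63 without total RNA replicate 3, against 5.09 with it, an alternative chosen after seeing the data. Of 287 alternative values 193 stayed within the spread between replicates, on the same side of the threshold or within 1.5 times the main value. Total RNA replicate 1 rests on 616 counts of RPS14B.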
